A study of Homo sapiens with 24 samples.

Results

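The comparison described here set MDA-MB-231 cells given a mimic of the microRNA miR-410 against the same cells given an inhibitor of miR-410. Each group had 2 arrays, so 4 of the 24 arrays of the series entered the contrast. A probe was taken into the comparison if its detection p-value, which sets its signal against the negative control beads of the same array, was under 0.05 on both arrays of either group. This left 19578 of 47309 probes, of which 15126 carried 1 gene symbol and stood for 11319 of the 20042 genes on the array, and the brightest probe of a gene gave its value. Of the probes taken in, 17301 passed in both groups, 942 only through the mimic arrays and 1335 only through the inhibitor arrays. At the threshold, 47 probes just inside it had a median raw signal of 114.3 and 29 just outside it one of 113.8.

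MDA-MB-231 is an established line of human breast cancer cells that forms metastases in mice. The cells were grown in medium with fetal calf serum, transfected with 50 nM of the mimic or the inhibitor and taken for RNA after 48 h. The labelled transfection protocol of the inhibitor arrays names a mimic as well, and the groups follow the titles, source names and transfection entries, which name the inhibitor. The study profiled microRNAs linked to limited metastatic spread. It also made arrays for a non-targeting control, which is itself a mimic, and for a mimic of miR-127-5p alone. Mimics of miR-655-3p, miR-544a, miR-135a and miR-369-3p were profiled with their inhibitors. The groups analysed here hold no untreated cells and no control inhibitor, so the contrast cannot by itself place a difference on either side. How far the mimic raised or the inhibitor lowered miR-410 activity was not measured.

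MicroRNAs are short RNAs that guide the silencing complex to messenger RNAs, mostly through pairing of the seed near their 5′ end, and the paired messages are translated less and degraded. A mimic is a synthetic duplex that loads the complex with more of the microRNA. An inhibitor is a complementary strand that binds the cell's own copies and keeps them from their targets. By this route it can act only as far as the cell makes the microRNA, and other effects of the molecule do not depend on it. miR-410 comes from the imprinted cluster on the long arm of chromosome 14 that also holds miR-369, miR-544a and miR-655.

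The mature sequences of the microRNAs with a mimic and an inhibitor in the series are given here to show how far their seeds differ, with bases 2 to 8, the seed, in capitals. The labels name miR-410 without its arm, and so both arms of the hairpin at chr14:101065912-101065991 (GRCh38.p14, plus strand) are shown. The sequences are those of RefSeq.
hsa-miR-410-3p: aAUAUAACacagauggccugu
hsa-miR-410-5p: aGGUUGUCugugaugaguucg
hsa-miR-369-3p: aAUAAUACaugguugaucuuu
hsa-miR-655-3p: aUAAUACAugguuaaccucuuu
hsa-miR-544a: aUUCUGCAuuuuuagcaaguuc
hsa-miR-135a-5p: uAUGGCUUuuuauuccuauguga
No other microRNA shown here shared the 7-base seed of either arm of miR-410, and miR-127-5p, which had a mimic alone, was not compared. The longest run that the seed of the 3p arm held in common with another was 4 bases, with miR-369-3p, whereas 6 bases were common to the seeds of miR-655-3p and miR-369-3p.

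The 4 arrays were alike in quality. Their median signals were 101.7 to 116.1, and 20100 to 20605 probes were detected on each. The log2 signals of the 2 mimic arrays and of the 2 inhibitor arrays correlated at r = 0.994 to 0.996 across probes. The vimentin gene VIM, CD44, CAV1, AXL, EGFR and MSN, which this mesenchymal-like line is known to express, were detected on all 4 arrays, and ESR1, PGR, FOXA1 and CDH1, which mark luminal or epithelial breast cells, were detected on 0 of 4 arrays. GATA3 was read at 45.4 to 57.1, where the lowest detected levels were 27.1 to 27.8. Of the markers of other cells, PTPRC, CD3E and HBB were not detected, and ALB was read at 87.2 to 137.1 on all 4 arrays. Mature miR-410 is not measured by these arrays, so the labels could not be checked against its level. Nothing in the labels tells if both arrays of a treatment stem from different cultures. The p-values rest on the spread between the arrays of a treatment, pooled over all 12 groups of the series, and this spread may be only technical.

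Between mimic and inhibitor, limma called 919 of the 19578 probes lower with the mimic (4.69%) and 890 higher (4.55%), where a call needed a fold of 1.4 or more with an adjusted p below 0.05. Of these, 129 of the lower probes were detected only with the inhibitor and 89 of the higher ones only with the mimic, and such probes could differ in no other direction. On the scale of genes, 521 of 11319 were lower (4.6%) and 634 were higher (5.6%). The lower genes reached much further: 139 of them differed by at least 2-fold and 12 by at least 4-fold, against 52 and 1 of the higher genes. Without a fold threshold or adjustment, 1347 genes had an unadjusted p under 0.05 and a lower level, and 2006 a higher one. The split between the directions rested on quantile normalization. With the arrays scaled to a common median instead, the median log2 difference of all probes moved from 0.01 to -0.13 and limma called 603 probes lower and 82 higher, so that higher calls were 12% of the total in place of 49.2%. Of the 93 called genes that are named here by rule, 40 lost their call with that scaling and 60 kept it in each of the 4 fits that left out 1 array. Without mimic replicate 1 the probes called lower were 597, and without inhibitor replicate 2 they were 582. The probes called higher were 478 without mimic replicate 2 and 476 without inhibitor replicate 2.

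**Figure D1:**
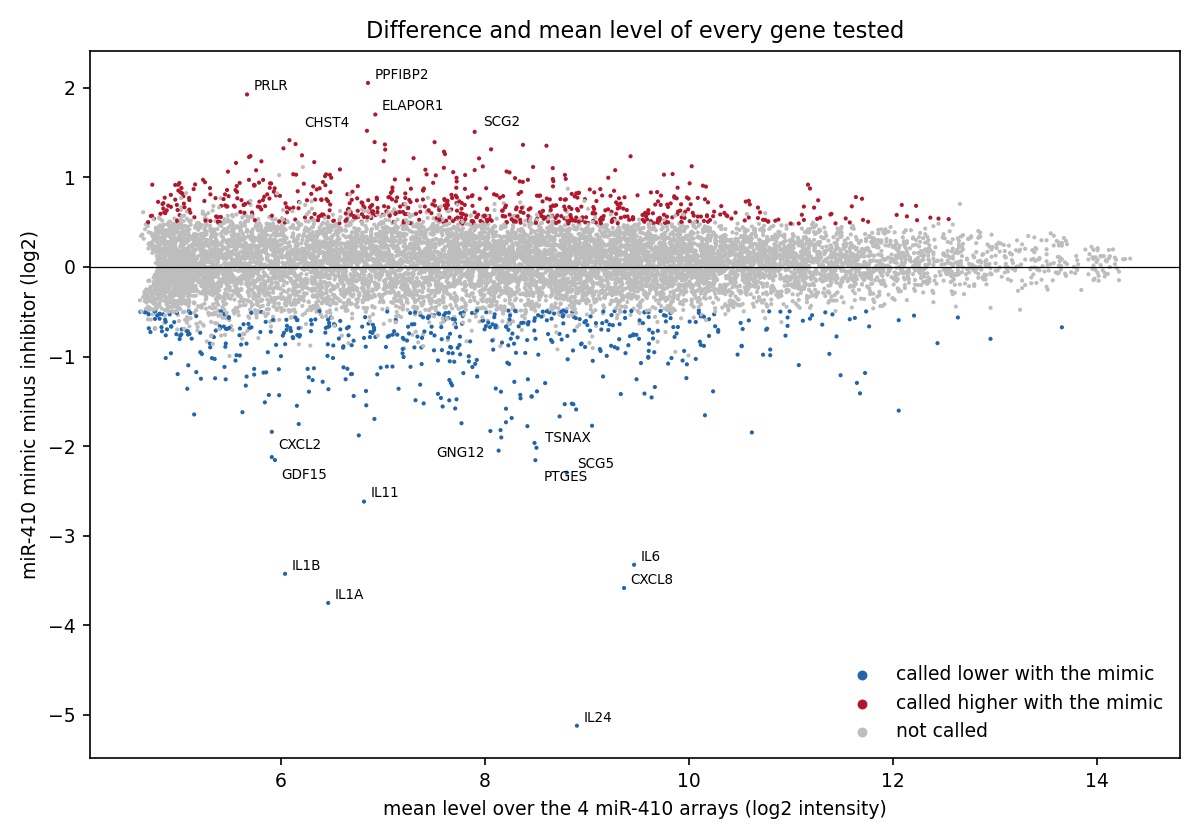
Log2 difference between miR-410 mimic and inhibitor (y axis) against the mean log2 intensity over the 4 arrays (x axis) for each of 11319 genes, 1 point per gene, with genes called lower in blue, called higher in red and not called in gray. The cytokine genes IL24, IL1A, CXCL8, IL1B and IL6 lie lowest, IL24 at -5.12, while no gene lies above 2.06.

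Cytokine genes gave the widest separation between the 2 treatments. IL24, a cytokine of the interleukin 10 family, read 85.8 and 76.8 with the mimic and 3087 and 2592 with the inhibitor. The inhibitor arrays were therefore 34.8-fold brighter (log2 difference of mimic minus inhibitor -5.12 ± 0.13, SE, adjusted p = 1.2e-12 by limma), and both of its tested probes were called. CXCL8, the neutrophil attractant interleukin 8, read 239 and 152 with the mimic and 2377 and 2199.5 with the inhibitor (log2 difference -3.58 ± 0.23, adjusted p = 1.2e-07). IL6 read 231 and 216 with the mimic and 2865 and 1747 with the inhibitor (log2 difference -3.33 ± 0.29, adjusted p = 2.4e-06). In each of these genes both mimic arrays lay far below both inhibitor arrays.

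The 2 forms of interleukin 1 were detected with the inhibitor alone. IL1A, the form that is also held in the cell as a precursor, read 368 and 286 with the inhibitor and was undetected on both mimic arrays, which makes it at least 11.7-fold lower with the mimic (adjusted p = 2.0e-09 by limma, measured means 24.1 ± 2.33 and 327 ± 58.3, SD, n = 2 each). IL1B, the secreted form, read 280.1 and 167 with the inhibitor and was likewise undetected with the mimic, at least 7.81-fold lower (adjusted p = 2.3e-07, measured means 20.1 ± 1.05 and 224 ± 79.9, SD, n = 2 each). These bounds were taken against the lowest level of a detected probe on each mimic array. Both genes entered the comparison only through the inhibitor arrays, where they were high, so they could only come out lower. Their p-values are therefore no separate support for that direction. A level here is a mean over all cells of a culture, so fewer cells expressing a gene and less RNA per cell cannot be told apart.

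Over the list of inflammatory and NF-kB genes, 12 of 23 tested genes were lower with the mimic (52.2%, against 4.6% of all genes). None was called higher by limma, with 2 higher at an unadjusted p under 0.05. The median log2 difference of the list was -0.61, against 0.05 over all genes. The difference was concentrated in the secreted proteins: 10 of 12 cytokines and colony-stimulating factors were lower, and 2 of 11 regulators were. IL1A and IL1B count among the lower genes, although they entered only through the inhibitor arrays and could not have been called higher. Beside the genes already named, CXCL2, a neutrophil attractant, read 31.3 and 26.6 with the mimic and 150.2 and 105 with the inhibitor (log2 difference -2.12 ± 0.18, adjusted p = 2.2e-06 by limma). CXCL2 was detected on only 1 of the 2 mimic arrays, so its mimic level lay at the detection limit. IL11, of the interleukin 6 family, read 65.8 and 31.4 with the mimic and 222 and 352 with the inhibitor (log2 difference -2.62 ± 0.57, adjusted p = 0.0066), but was no longer called without mimic replicate 2 or without inhibitor replicate 2 (-3.15 to -2.09 over the 4 fits that each left out 1 array). The granulocyte factor CSF3 (-1.65, adjusted p = 2.5e-05), the chemokines CCL20 (-0.96, adjusted p = 0.0099) and CXCL1 (-0.85, adjusted p = 0.020) and the macrophage factor CSF1 (-0.69, adjusted p = 0.020) were lower by less. Of the regulators, the mitochondrial superoxide dismutase SOD2 was lower at -0.77 (adjusted p = 3.7e-04), as was NFKBIA, the inhibitor of NF-kB that NF-kB itself induces, at -0.58 (adjusted p = 0.0063). IL24 is not on this list. With median scaling 11 of the 23 genes were called lower, and 8 to 10 were when 1 array was left out.

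Set beside the non-targeting control, the difference in the cytokines lay mostly with the inhibitor arrays. That control is a mimic, and the series holds no control inhibitor. A loss of miR-410 and an effect of any inhibitor molecule can therefore not be told apart by it. With the non-targeting control IL24 read 85.6 and 89.4, close to the mimic, and IL6 read 250.5 and 236, CXCL8 226 and 216, IL1A 25.1 and 27.4 and IL1B 23.9 and 25.8. The inhibitors of the other microRNAs fell into distinct levels. IL24 read 4360.4 and 4516 with the miR-135a inhibitor and 2014 and 1966 with the miR-369-3p inhibitor. It read 289 and 316 with the miR-544a inhibitor and 174 and 140.0 with the miR-655-3p inhibitor. IL6 followed the same order of high and low groups, with 4449.6 and 4191 for miR-135a, 3038 and 1319 for miR-369-3p, 209 and 266 for miR-544a and 183 and 187 for miR-655-3p. For IL1A, IL1B, CXCL8 and CXCL2 too, all 4 arrays of the miR-135a and miR-369-3p inhibitors were brighter than all 4 arrays of the miR-544a and miR-655-3p inhibitors. High levels of these 6 genes were thus seen with 3 of the 5 inhibitors.

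**Figure D2:**
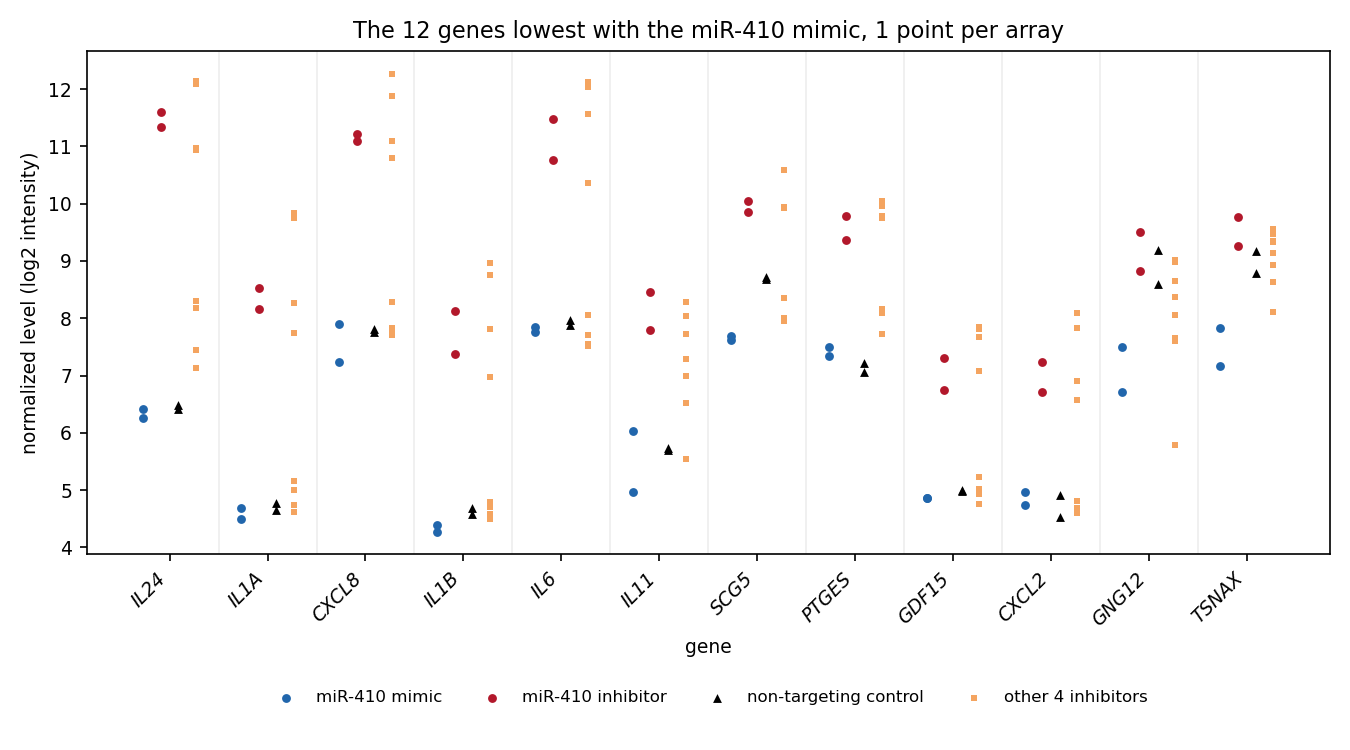
Normalized level on a log2 scale (y axis) of the 12 genes with the most negative difference (x axis), 1 point per array, for the miR-410 mimic (2 arrays, blue circles), the miR-410 inhibitor (2 arrays, red circles), the non-targeting control (2 arrays, black triangles) and the inhibitors of the other 4 microRNAs (8 arrays, orange squares). For the cytokines the mimic and control points lie together and the miR-410 inhibitor points high. For GNG12 and TSNAX the control lies with the miR-410 inhibitor and the mimic points are low, but for GNG12 some points of the other inhibitors lie as low.

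When the miR-410 mimic was set against the 8 arrays of the other 4 inhibitors instead, IL24 was still lower (log2 difference -3.31, adjusted p = 2.7e-11 by limma), as were IL1A (-2.30), CXCL8 (-2.13), IL1B (-2.06) and IL6 (-1.81). The miR-410 inhibitor in turn stood above the mean of those 8 arrays for IL24 (log2 difference 1.82, adjusted p = 1.2e-07), IL6 (1.51, adjusted p = 0.0076), CXCL8 (1.45, adjusted p = 0.0015) and IL1A (1.45, adjusted p = 7.0e-05). These 2 comparisons share the mimic or the inhibitor arrays with the main contrast and are given only side by side with it.

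Because these cytokines are known to be driven by NF-kB and AP-1, the stretches upstream of their starts are shown for 3 of them, 20 bases on either side of a match to GGNNTTTCC, an NF-kB type motif, which is in capitals (RefSeq, GRCh38.p14, written in the direction of the gene).
CXCL8, chr4:73740458-73740506, plus strand: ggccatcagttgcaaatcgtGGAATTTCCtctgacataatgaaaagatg
IL6, chr7:22727108-22727156, plus strand: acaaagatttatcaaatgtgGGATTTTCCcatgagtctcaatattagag
CXCL2, chr4:74099244-74099292, minus strand: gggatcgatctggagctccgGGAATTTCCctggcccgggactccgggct
The match began 91 bases before the annotated start of CXCL8, 72 before that of IL6 and 77 before that of CXCL2. CXCL2 had a second match 53 bases before its start, which begins at the end of the stretch shown and is not in capitals there. Both strands were searched from 250 bases before to 50 after each start. Among the cytokines called lower, 8 had 9 promoters in the table, and 5 of the 9 held the motif (55.6%). So did 2198 of all 35116 promoters (6.26%) and 6.82% of the promoters of tested genes. TGANTCA, an AP-1 type motif, was in 4 of the 9 (44.4%), in 7.71% of all promoters and in 5.25% of those of tested genes. Both promoters of IL1A are among these 4 and share a site. The AP-1 type motif was also in 4 of 18 promoters of the 12 highest genes (22.2%), where the NF-kB type motif was in 0 of 18. In the 12 lowest genes, which include several of these cytokines, the shares were 30.8% and 23.1%. The cytokines were chosen as genes known to be driven by both factors, so these shares are no test. A match describes these letters only and no binding was measured.

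The other genes of the 12 lowest were not cytokines of the interleukin or chemokine families. SCG5, a chaperone of prohormone convertase in secretory granules, read 197 and 206 with the mimic and 1063 and 923 with the inhibitor (log2 difference -2.30 ± 0.11, adjusted p = 2.9e-09 by limma). With the control it read 412 and 424, between the 2 treatments. PTGES, the terminal synthase of prostaglandin E2, read 162 and 181 with the mimic and 884 and 659.8 with the inhibitor (log2 difference -2.16 ± 0.16, adjusted p = 4.6e-07), and 148 and 133 with the control, so that here the mimic lay beside the control. GDF15, a stress-induced member of the TGF-beta family, read 29.2 and 29.2 with the mimic and 158 and 107 with the inhibitor (log2 difference -2.16 ± 0.25, adjusted p = 3.6e-05), and the mimic arrays stood just above the lowest detected levels.

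In a further set of genes the mimic arrays, not the inhibitor arrays, stood away from the control. TSNAX, the partner of the RNA-binding protein translin, read 227 and 144 with the mimic and 616 and 872 with the inhibitor, and 576 and 445 with the control (log2 difference of mimic minus inhibitor -2.02 ± 0.34, adjusted p = 0.0011 by limma). Of its 2 tested probes 1 was called. GNG12, a gamma subunit of heterotrimeric G proteins, read 182 and 105 with the mimic and 454 and 724 with the inhibitor, and 584 and 386 with the control (log2 difference -2.05 ± 0.54, adjusted p = 0.022). Its call was lost without mimic replicate 2, without inhibitor replicate 2 and against the other 4 inhibitors (-0.90, adjusted p = 0.20). Over the 8 arrays of the other inhibitors GNG12 read 55.2 to 519, so low levels were not limited to the mimic arrays. PRXL2C read 220.4 and 207 with the mimic and 547 and 618 with the inhibitor, with 574 and 507 in the control and 372 to 574 over the 8 arrays of the other inhibitors (log2 difference -1.45 ± 0.14, adjusted p = 7.4e-06). All 10 of these comparison arrays were brighter than both mimic arrays.

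BMP signaling was the list with the next lowest median. BMP ligands bind paired receptor kinases on the cell surface, and the receptor-regulated SMADs carry the signal to target genes such as the ID genes. Of 10 tested genes, 5 were lower with the mimic (50.0%, against 4.6% of all genes). Limma called none higher, also at an unadjusted p under 0.05 (0 genes). The median log2 difference was -0.40, and it was -0.42 in the mean of the other 4 mimic-inhibitor pairs, so a low list median was not limited to miR-410. BMPR2, the type II receptor, read 149 and 177 with the mimic and 502 and 579 with the inhibitor (log2 difference -1.73 ± 0.12, adjusted p = 3.3e-07), and both of its tested probes were lower. It read 846 and 903 with the control and 429 to 690.3 with the other inhibitors, so the mimic arrays were the low ones. SMAD5, a receptor-regulated SMAD, read 601 and 530.2 with the mimic and 1037 and 1127 with the inhibitor (log2 difference -0.94 ± 0.11, adjusted p = 3.6e-05), against 1325 and 1341 with the control. The inhibitory SMAD6 was lower at -0.68 (adjusted p = 0.021), the target ID3 at -0.64 (adjusted p = 0.0016) and the BMP-binding protein BMPER at -0.58 (adjusted p = 0.025). Without background correction 2 of the list were called lower, as with only the 4 miR-410 arrays in the fit, and ID3 lost its call in both. SMAD6 lost its call under median scaling and when any 1 of 3 of the arrays was left out. With that scaling 3 of the list were called lower, and 3 to 4 were when 1 array was left out.

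In TGF-beta signaling 4 of 26 genes were lower and 2 higher (15.4% and 7.69%, against 4.6% and 5.6% of all genes), with a median log2 difference of 0.10. The fits without 1 array called 2 to 3 lower and 1 to 2 higher. The lower genes included GDF15, given above. PMEPA1, a TGF-beta target that dampens the signal, read 241 and 279 with the mimic and 750.4 and 749.7 with the inhibitor, and 772 and 778 with the control (log2 difference -1.53 ± 0.14, adjusted p = 4.4e-06 by limma). The corepressor TGIF1 was lower at -0.83 (adjusted p = 0.0070) and SMAD2, a receptor-regulated SMAD, at -0.70 (adjusted p = 0.020), but SMAD2 lost its call when any 1 of the 4 arrays was left out (-0.77 to -0.63) and TGIF1 without mimic replicate 2 or inhibitor replicate 2. The activin antagonist FST was higher at 0.60 (adjusted p = 0.011) and the matricellular target CCN2 at 0.49 (adjusted p = 0.011), and with median scaling no gene of the list was called higher, nor was any at an unadjusted p under 0.05 (0 genes).

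Stress genes were called in both directions. Of 31 genes of the ATF4 and unfolded protein response 5 were lower and 2 higher (16.1% and 6.45%, against 4.6% and 5.6% of all genes), so that the higher share was near that of all genes. Lower calls fell on 3 of 10 chaperones and degradation factors of the endoplasmic reticulum and on 2 of 8 sensors and transcription factors, and both higher calls fell on the 13 amino acid and stress targets. The co-chaperone DNAJB9 read 116 and 126 with the mimic and 380.2 and 345 with the inhibitor (log2 difference -1.58 ± 0.11, adjusted p = 3.9e-07 by limma), against 312 and 341 with the control. HSPA5, the main chaperone of that compartment, was lower at -0.63 (adjusted p = 0.0016), and SEL1L, of the degradation complex, at -0.66 (adjusted p = 0.014). DDIT3, the stress factor CHOP, read 207 and 220.0 with the mimic and 566 and 599 with the inhibitor, and 184 and 183 with the control, and CEBPB, its dimer partner, read 1943 and 2098 with the mimic and 5711 and 5047 with the inhibitor, and 2417 and 2307 with the control. For both the mimic lay near the control and the inhibitor above it (log2 differences -1.45 and -1.41, adjusted p = 1.7e-06 and 6.2e-06). Asparagine synthetase, ASNS, ran the other way with 2969 and 3381 with the mimic and 1640.3 and 1711 with the inhibitor (log2 difference 0.92 ± 0.13, adjusted p = 3.2e-04), and 2982 and 3126 with the control.

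Among hypoxia and glycolysis genes, 5 of 32 were lower and 2 higher (15.6% and 6.25%, against 4.6% and 5.6% of all genes), around a median log2 difference of -0.06. The higher count was 1 to 2 without 1 array. BNIP3L, a receptor for the removal of mitochondria, read 631 and 682 with the mimic and 1512 and 1589.8 with the inhibitor and was higher on all 10 arrays of the control and of the other inhibitors (1045 and 1027, and 1102 to 1523) than on the mimic arrays (log2 difference -1.24 ± 0.13, adjusted p = 1.2e-05 by limma), although 1 of its 2 tested probes was called. ANGPTL4, an inhibitor of lipoprotein lipase, was lower at -0.95 (adjusted p = 2.0e-04). The carbonic anhydrase gene CA12 was higher with the mimic, at 529.9 and 519 against 221 and 264 with the inhibitor and 285 and 281 with the control (log2 difference 1.12 ± 0.15, adjusted p = 1.6e-04).

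Of 38 genes of MAPK signaling 3 were lower and 4 higher (7.89% and 10.5%, against 4.6% and 5.6% of all genes). EGR1, an immediate early transcription factor, read 136 and 162 with the mimic and 620.2 and 496 with the inhibitor (log2 difference -1.90 ± 0.15, adjusted p = 1.3e-06 by limma), and SPRED1, a brake on RAS, read 699 and 800.2 with the mimic and 2004 and 1915 with the inhibitor (log2 difference -1.39 ± 0.12, adjusted p = 2.1e-06). The control read 303 and 309 for EGR1, and 1763 and 1715 for SPRED1, so both were lowest with the mimic. MAP4K4, an upstream kinase of the JNK branch, was lower at -0.96 (adjusted p = 0.0010). The 4 higher genes, MAP2K4, MAP3K1, SPRY2 and SPRED2, lay at 0.50 to 0.60. With 1 array left out 1 to 2 of the list were called higher, and MAP3K1 was called in none of these 4 fits nor in the authors' table. None of the list was called higher with median scaling by limma, nor was any at an unadjusted p under 0.05 (0 genes).

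The genes that were higher with the mimic had smaller differences. PPFIBP2, liprin beta 2, read 243 and 229 with the mimic and 55.5 and 58.1 with the inhibitor (log2 difference 2.06 ± 0.21, adjusted p = 1.1e-05 by limma), and the control lay between, at 94.4 and 83.3. PRLR, the prolactin receptor, read 88.3 and 112 with the mimic and was undetected on both inhibitor arrays, at least 3.62-fold higher (adjusted p = 1.3e-06). PRLR entered the comparison only through the mimic arrays and could only come out higher, so its p-value is no separate support for that direction. With the control it read 71.5 and 66.9. ELAPOR1, a membrane protein of endosomes and lysosomes, read 227 and 212 with the mimic and 67.5 and 67.5 with the inhibitor (log2 difference 1.70 ± 0.17, adjusted p = 1.1e-05). In these 3 genes both mimic arrays were above both control arrays as well.

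Several secretory and metabolic genes followed. SCG2, secretogranin II of the granule matrix, read 391 and 416 with the mimic and 150.5 and 133 with the inhibitor, and 172 and 167 with the control (log2 difference 1.51 ± 0.11, adjusted p = 4.8e-07 by limma). CHST4, a sulfotransferase of mucin-type glycans, read 199.6 and 190.2 with the mimic and 65.9 and 70.0 with the inhibitor (log2 difference 1.52 ± 0.15, adjusted p = 1.2e-05). HSD3B1, a dehydrogenase of steroid synthesis, read 115 and 108 with the mimic and 35.2 and 49.1 with the inhibitor, but 157 and 144 with the control, which was above both treatments (log2 difference 1.42 ± 0.18, adjusted p = 1.2e-04). The remaining members of the 12 highest were ACSS1, a mitochondrial acetyl-CoA synthetase (1.39), the small nucleolar RNA SNORD13 (1.39), the glucose transporter SLC2A12 (1.37), MFHAS1 (1.37), CCDC190 (1.36) and the ubiquitin ligase MARCHF4 (1.35). The ubiquitin ligase read 599.9 and 647 with the mimic and 648 and 679.6 with the control, against 247 and 240.4 with the inhibitor. SNORD13 was called in 1 of the 4 fits that each left out 1 array (1.01 to 1.78) and not in the authors' table, and MFHAS1 in 1 of the 4 (1.05 to 1.68) and not with median scaling or against the other 4 inhibitors. CCDC190 was not called with median scaling either.

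**Figure D3:**
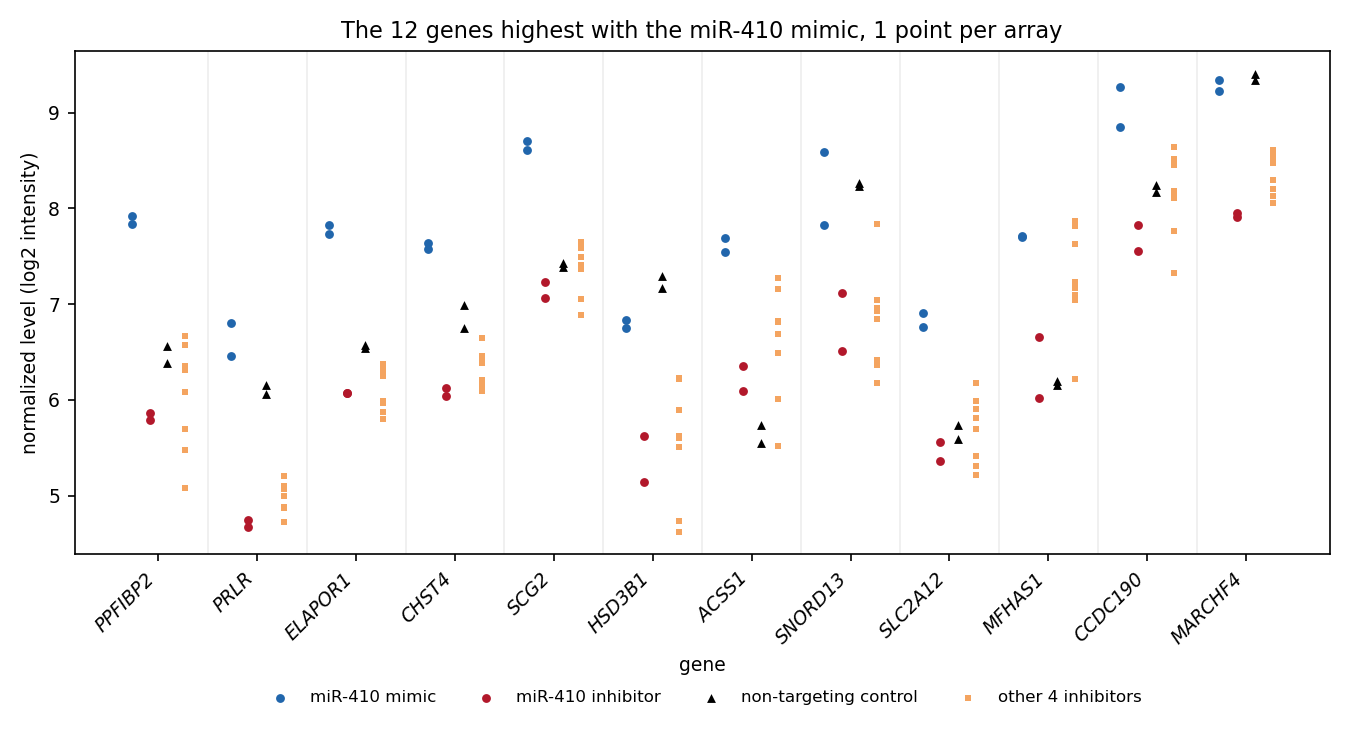
Normalized level on a log2 scale (y axis) of the 12 genes with the most positive difference (x axis), 1 point per array, for the miR-410 mimic (2 arrays, blue circles), the miR-410 inhibitor (2 arrays, red circles), the non-targeting control (2 arrays, black triangles) and the inhibitors of the other 4 microRNAs (8 arrays, orange squares). PPFIBP2, ELAPOR1, CHST4 and SCG2 lie above every other point with the mimic, and HSD3B1 and MARCHF4 lie higher with the control.

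Interferon-stimulated genes, which cells induce on sensing double-stranded RNA, were higher in part: 9 of 33 were called higher with the mimic (27.3%, against 5.6% of all genes) and limma called none lower, with 1 lower at an unadjusted p under 0.05. IFIT2, which binds foreign RNA, read 634 and 659.6 with the mimic and 364 and 365 with the inhibitor (log2 difference 0.83 ± 0.10, adjusted p = 8.2e-05), and 419 and 388 with the control. IFI44 read 549 and 607 with the mimic and 354 and 330.5 with the inhibitor (log2 difference 0.76 ± 0.11, adjusted p = 2.4e-04). The RNA sensors IFIH1 (0.62, adjusted p = 0.0034) and DHX58 (0.81, adjusted p = 0.0017) were among the called genes. The other 4 mimic-inhibitor pairs had a mean difference of 1.16 for IFIT2 and 0.89 for IFI44. With median scaling limma called none of the list higher, 7 had an unadjusted p under 0.05 and a higher level, and the list median was 0.02.

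In cholesterol balance 5 of 23 genes were higher (21.7%, against 5.6% of all genes), all of them among the 15 genes of synthesis, and 1 was lower (4.35%, against 4.6% of all genes). The fits without 1 array called 3 to 4 higher. HMGCS1, the synthase that makes HMG-CoA, read 1147 and 1335 with the mimic and 606 and 605 with the inhibitor (log2 difference 1.03 ± 0.16, adjusted p = 7.2e-04 by limma), and 1094 and 1094 with the control. DHCR7, which makes cholesterol in the last step, was higher at 0.71 (adjusted p = 0.0017). ABCA1, the transporter that carries cholesterol out of the cell, was the lower gene, at 138 and 167 with the mimic and 504 and 571 with the inhibitor (log2 difference -1.82 ± 0.14, adjusted p = 6.3e-07). The control read 169 and 193, beside the mimic. With median scaling 1 of the list was called higher.

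Adhesion and matrix genes, which the study was about, gave few calls. Of 25 integrins and focal adhesion genes 2 were higher, ITGB5 at 0.51 (adjusted p = 0.0037 by limma) and TNS3 at 0.61 (adjusted p = 0.0078). ITGB5 and TNS3 were not called without mimic replicate 2 or inhibitor replicate 2. The matrix list held 2 lower and 2 higher genes of 27. COL4A1, of basement membrane collagen, read 1405 and 1456 with the mimic and 785 and 714 with the inhibitor (log2 difference 0.93 ± 0.11, adjusted p = 4.0e-05), and COL6A3 differed by -0.81 ± 0.14 on the log2 scale (adjusted p = 0.0012). Of 15 proteases and their inhibitors, the metalloprotease ADAM19 was higher at 0.70 (adjusted p = 1.9e-04) and 1 gene was lower. The shares of 8% and less in these lists were near those of all genes in both directions. With median scaling the calls of ITGB5, TNS3, COL4A1 and ADAM19 were lost.

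Of the junction and mesenchymal genes, CGN, the tight junction protein cingulin, was higher at 87.0 and 73.7 with the mimic and 36.7 and 31.3 with the inhibitor (log2 difference 1.24 ± 0.13, adjusted p = 1.7e-05 by limma), and the control read 32.7 and 32.9. EPCAM, an epithelial adhesion molecule, was lower at -0.54 (adjusted p = 0.011), without a call under median scaling, without mimic replicate 2 or without inhibitor replicate 2 (-0.68 to -0.39). SNAI2, a transcription factor of mesenchymal cells, read 1095 and 1072 with the mimic and 1916 and 2090.2 with the inhibitor, against 1626 and 1626 with the control (log2 difference -0.88 ± 0.20, adjusted p = 0.0089), and its call too was lost without either of those 2 arrays (-0.95 to -0.82). PLAUR, the urokinase receptor of the protease list, was lower at 838 and 832 with the mimic and 1546 and 1532 with the inhibitor (log2 difference -0.88 ± 0.18, adjusted p = 0.0045), and the control at 840.2 and 902 lay beside the mimic. PLAUR was not called against the other 4 inhibitors (-0.31, adjusted p = 0.19), and neither was SNAI2 (-0.34, adjusted p = 0.19 by limma). SNAI2 also lost its call under median scaling. Over the lists, 1 of 14 epithelial junction genes was lower and 2 were higher (7.14% and 14.3%, against 4.6% and 5.6% of all genes). The second higher gene, the desmosomal plakophilin PKP2, was called in none of the 4 fits that left out 1 array. Of 10 mesenchymal genes 1 was lower (10.0%, against 4.6% of all genes).

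Cell cycle genes gave few calls. Of 40 DNA replication genes limma called none, although 11 were higher and 2 lower at an unadjusted p under 0.05. Of 43 mitosis genes 3 were higher (6.98%, against 5.6% of all genes), INCENP of the chromosomal passenger complex (0.80, adjusted p = 0.0010, 1 of its 2 probes), the kinetochore scaffold KNL1 (0.75, adjusted p = 0.016) and the spindle protein ASPM (0.61, adjusted p = 0.0029). The list median was 0.24, against 0.05 over all genes, and 0.05 against -0.10 with median scaling. In G1 to S control 3 of 25 were higher (5.6% of all genes were), among them the inhibitor CDKN1C at 111 and 115 with the mimic and 68.6 and 55.1 with the inhibitor (log2 difference 0.88 ± 0.14, adjusted p = 9.5e-04). KNL1 was not called in 3 of the 4 fits that left out 1 array. None of these 6 calls remained with median scaling, where 3 mitosis and 3 G1 to S genes were higher at an unadjusted p under 0.05. Of 17 p53 target genes TP53INP1, a stress-induced p53 partner, was lower at -0.79 (adjusted p = 0.0072) and SESN1, a sestrin, higher at 0.64 (adjusted p = 0.0048), shares close to those of all genes, and neither was called with median scaling.

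Wnt genes gave 5 higher of 24 (20.8%, against 5.6% of all genes), of which 4 were ligands or receptors, and 2 to 4 when 1 array was left out. FZD2, a Frizzled receptor, read 1478 and 1527 with the mimic and 946 and 877 with the inhibitor (log2 difference 0.72 ± 0.11, adjusted p = 5.6e-04 by limma), and DKK1, a secreted Wnt antagonist, read 3765 and 4098 with the mimic and 2467 and 2446 with the inhibitor (log2 difference 0.68 ± 0.10, adjusted p = 2.4e-04). In PI3K, AKT and mTOR signaling 2 of 20 were higher (10.0%, against 5.6% of all genes, and 1 to 4 genes when 1 array was left out), the kinase SGK1 at 0.78 (adjusted p = 2.8e-04) and the transcription factor FOXO1 at 0.77 (adjusted p = 0.0079). FOXO1 was not called without mimic replicate 2 or inhibitor replicate 2. All of these calls were lost with median scaling, where limma called none of either list higher, with 4 Wnt and 3 PI3K genes higher at an unadjusted p under 0.05.

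Small nucleolar RNAs and histone transcripts had list medians below 0. Of 128 small nucleolar and Cajal body RNAs, which guide the chemical modification of other RNAs, 12 were lower (9.38%, against 4.6% of all genes) and 3 higher, with a median log2 difference of -0.23 against 0.05. SNORD3A, the U3 RNA of ribosome assembly, was the lowest at -1.47 (adjusted p = 0.0017 by limma), and its near-identical copies SNORD3C (-1.46) and SNORD3D (-1.32) cannot be told apart from it with certainty. SNORA65 was lower at -1.13 (adjusted p = 3.8e-05). Between 4 and 11 of these RNAs were called lower, and 0 to 3 higher, when 1 array was left out. Of 40 histone genes 5 were lower (12.5%, against 4.6% of all genes), and limma called none higher, with 3 at an unadjusted p under 0.05. H3C14 lay at -0.99 and H3C13 at -0.76 (adjusted p = 0.0080 and 0.0022), and these genes too are close copies of each other. When 1 array was left out 1 to 2 histone genes were called lower. The histone median was -0.18 in the miR-410 pair and -0.31 in the mean of the other pairs.

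**Figure D4:**
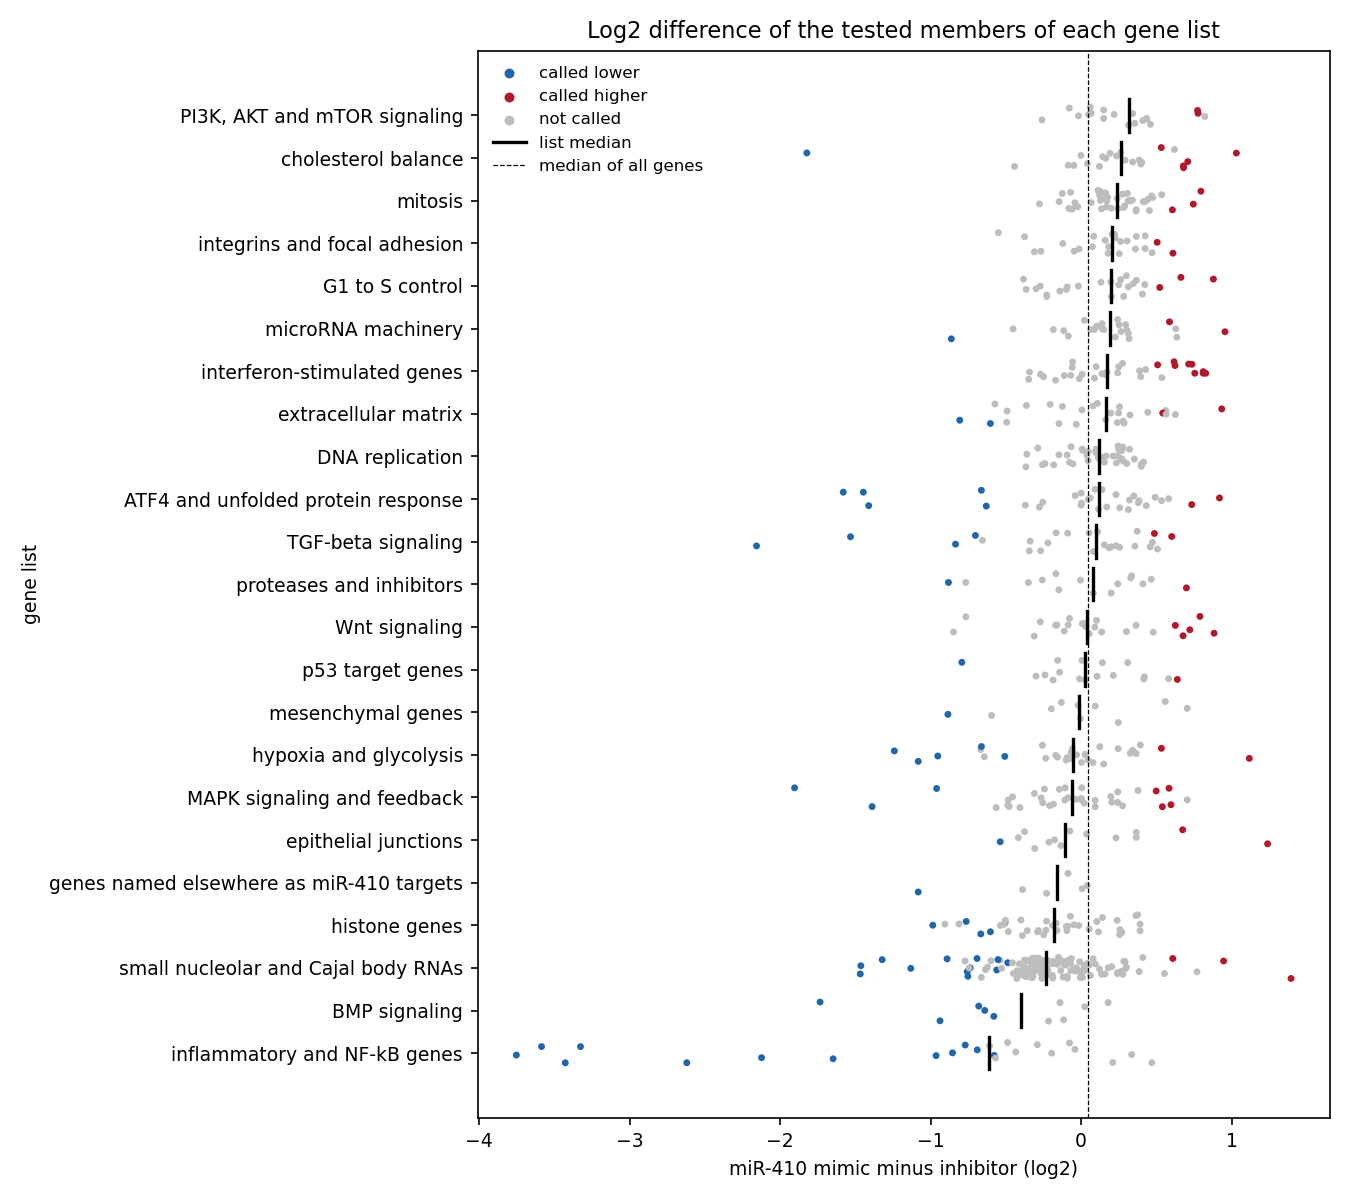
Log2 difference between miR-410 mimic and inhibitor (x axis) of each tested gene in the reported lists with at least 6 tested genes (y axis, ordered by median), with genes called lower in blue, called higher in red and not called in gray, list medians as black bars and the median of all genes as a dashed line. The inflammatory list reaches from 0.47 down to -3.75, and has the lowest median (-0.61), while the highest list median, of PI3K, AKT and mTOR signaling, is 0.32.

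The microRNA machinery, which the transfected molecules use, held 1 lower and 2 higher of 24 genes (4.17% and 8.33%, against 4.6% and 5.6% of all genes). The 5′ to 3′ exonuclease XRN1 read 62.0 and 68.9 with the mimic and 119 and 118 with the inhibitor (log2 difference -0.86 ± 0.21, adjusted p = 0.013 by limma), and was not called when any 1 of 3 of the arrays was left out (-0.94 to -0.79). The calls of the silencing proteins TNRC6A (0.96, adjusted p = 0.045, 1 of its 2 probes) and AGO2 (0.59, adjusted p = 0.043) were lost in each of the 4 fits that left out 1 array, and under median scaling.

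Genes that have been named elsewhere as targets of miR-410 in other cells were read next. Of 10 such genes 6 could be tested and 1 was lower (16.7%, against 4.6% of all genes). With 6 genes tested this share rests on 1 call and says little about the list. VEGFA, the vascular growth factor, read 163 and 167 with the mimic and 434 and 281 with the inhibitor (log2 difference -1.08 ± 0.16, adjusted p = 4.6e-04 by limma), and 180.4 and 182 with the control, which lay just above the mimic. The mimic-inhibitor difference of VEGFA was larger for miR-135a (-1.46) and miR-369-3p (-1.34). It ran the other way for miR-544a (1.63) and was 0.26 for miR-655-3p, so a lower level was not particular to miR-410. STAT3, a transcription factor downstream of cytokine receptors, read 534 and 586 with the mimic and 711 and 753 with the inhibitor (log2 difference -0.39 ± 0.13, adjusted p = 0.063), and 951 and 882 with the control, so both mimic arrays were the lowest without passing the threshold. HMGB1 (-0.23), MET (-0.09), BRD7 (0.04) and BAK1 (0.01) had adjusted p-values of 0.063 to 0.99 together with STAT3. From the 14q32 locus, the host region of miR-410, 1 transcript could be tested, MEG8, at 33.4 and 27.4 with the mimic and 37.8 and 33.8 with the inhibitor (log2 difference -0.24 ± 0.18, adjusted p = 0.44).

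The study followed 4 genes as targets of other microRNAs of this series and chose them from these arrays, so that they are no independent evidence. CILK1, a kinase of cilia, was lower, at 394 and 356 with the mimic and 825 and 927 with the inhibitor (log2 difference -1.22 ± 0.14, adjusted p = 4.5e-05 by limma), with 1332 and 1385 in the control. Of its 2 tested probes 1 was called. TGFBR2, the type II TGF-beta receptor, read 1485 and 1670.0 with the mimic and 1565 and 1414 with the inhibitor (log2 difference 0.08 ± 0.10, adjusted p = 0.65), far below the 3655 and 3989 of the control with both treatments. On the log2 scale the arrays of the other inhibitors were at 10.484 to 10.711, alike to the miR-410 arrays at 10.466 to 10.706. The control, at 11.835 and 11.962, stood above all of these arrays. ROCK2, a kinase of the cytoskeleton, was at 0.30 (adjusted p = 0.041), under the fold threshold, with its second probe at -0.14, and the mesenchymal cadherin CDH11 at 0.56 (adjusted p = 0.11).

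Whether a difference was larger or smaller for miR-410 than for the other microRNAs was tested as the mimic-inhibitor difference of miR-410 minus the mean of the same difference for the other 4 microRNAs with both a mimic and an inhibitor, which share no arrays with it. This called 487 of 11319 genes below (4.3%) and 557 above the other pairs (4.92%). Of the 521 genes lower in the miR-410 pair 288 were also called below the other pairs, and of the 634 higher ones 266 were called above them. These counts share the miR-410 arrays between both tests.

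The cytokines were lower with the mimics of miR-135a and miR-369-3p as well, relative to their own inhibitors. For IL24 the differences were -4.59 for miR-135a, -4.10 for miR-369-3p, -0.93 for miR-544a and 0.21 for miR-655-3p, beside -5.12 for miR-410. For IL6 they were -4.34, -3.48, 0.30 and 0.35 in the same order, beside -3.33. The miR-410 value was below the mean of the 4 for IL24 (by -2.77, adjusted p = 6.5e-08 by limma), and for IL1A, IL1B, CXCL8 and IL6, but single pairs came close to it or passed it. For IL11 the test of the difference gave -1.04 ± 0.63 (adjusted p = 0.33). ABCA1 differed from the mean of the other pairs by -0.01 ± 0.15 (adjusted p = 0.98), with -3.44 for miR-135a.

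Other genes were lower in the miR-410 pair than in each of the other 4 pairs. BNIP3L had -1.24 with miR-410 and, in the order just used, -0.20, -0.07, 0.07 and 0.33 with the other microRNAs (difference from their mean -1.27 ± 0.14, adjusted p = 8.1e-05 by limma). PRXL2C had -1.45 against 0.20, 0.49, 0.27 and 0.49 (difference -1.81 ± 0.16, adjusted p = 8.1e-06). DNAJB9 had -1.58 against -0.57, -0.21, 0.34 and 0.47 (difference -1.59 ± 0.13, adjusted p = 3.6e-06), and GNG12 -2.05 against -0.19, 2.07, -0.43 and 1.13 (difference -2.69 ± 0.61, adjusted p = 0.012).

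On the other side PPFIBP2 stood 1.84 ± 0.23 above the mean of the other pairs (adjusted p = 2.2e-04 by limma), and SCG2 1.53 ± 0.12 above it (adjusted p = 3.8e-06). MFHAS1 (1.75), CCDC190 (1.58), PROM2, a membrane protein of cell protrusions (1.53), and CPED1 (1.48) completed the 6 genes furthest above. PROM2 read 109 and 109.5 with the mimic and 57.5 and 59.4 with the inhibitor (log2 difference 0.90 ± 0.24, adjusted p = 0.024), and was not called when any 1 of the 4 arrays was left out (0.88 to 0.92). CPED1 read 350.2 and 402 with the mimic and 167 and 157 with the inhibitor, and 346 and 359.6 with the control, so the inhibitor arrays were the low ones (log2 difference 1.21 ± 0.13, adjusted p = 2.4e-05).

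**Figure D5:**
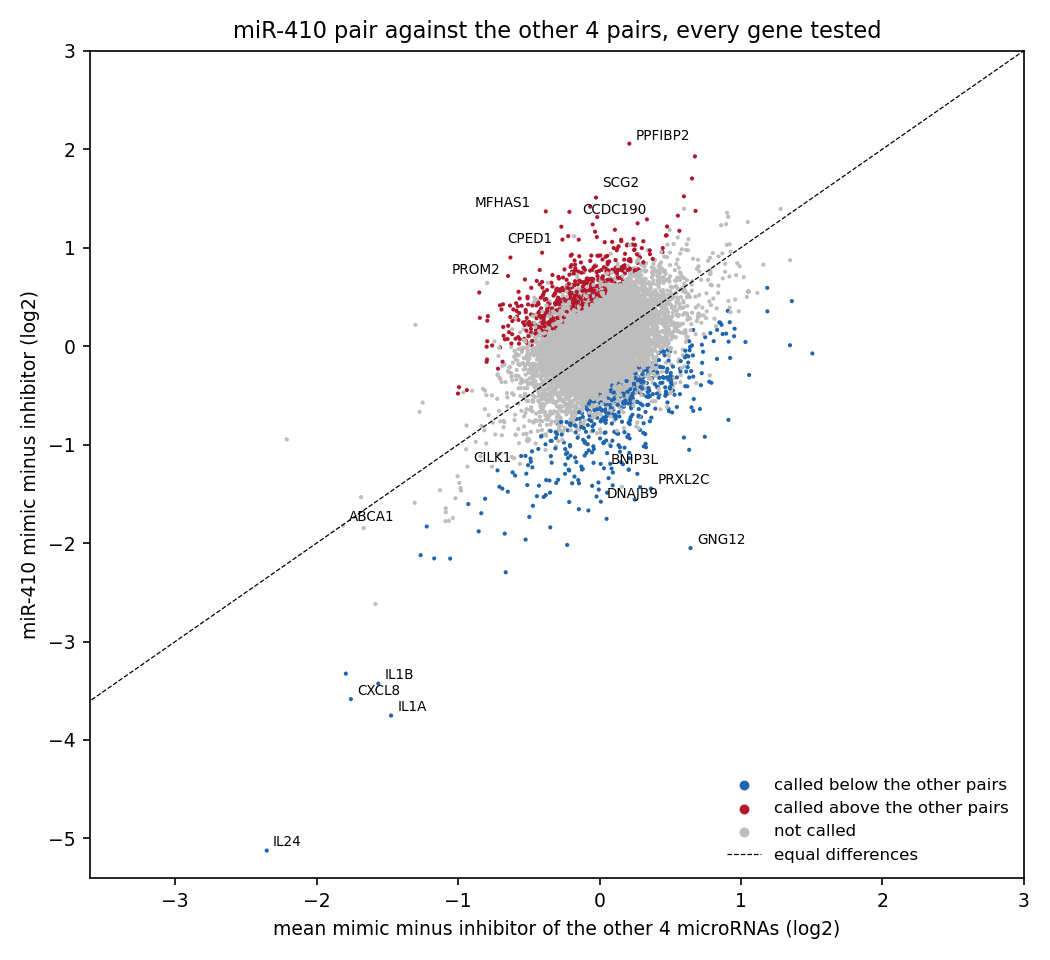
Mimic minus inhibitor log2 difference for miR-410 (y axis) against the mean of the same difference for the other 4 microRNAs (x axis), 1 point per gene for 11319 genes, with genes called below the other pairs in blue, above them in red and not called in gray, and equal differences along the dashed line. IL24 lies far below the line although it is low in both, ABCA1 and CILK1 lie without a call nearer the line, and BNIP3L, DNAJB9 and PRXL2C lie low at an x value near 0.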

How the data were processed

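RNA from MDA-MB-231 cells was measured on 24 Illumina HT-12 version 4 bead arrays, 2 for each of 12 transfections, of which 4 arrays enter the contrast. Per the labels, RNA was extracted with Trizol and RNeasy and amplified to biotinylated cRNA, whereas the study's methods name another extraction kit. The deposited file holds, for each probe and array, a signal intensity as the authors' scanner software gave it, not normalized, with a detection p-value. The authors' second table holds log2 values, background subtracted and quantile normalized according to their methods, and was used as an alternative. Probes were named through the platform's annotation.

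Signals were background corrected by normexp from the detection p-values and quantile normalized over all 24 arrays with neqc of limma 3.58.1 (R 4.3.3), with an offset of 16, and a level is 2 to the power of the normalized log2 value. Kept were probes whose detection p-value was below 0.05 on both mimic arrays or both inhibitor arrays of miR-410. Means of 12 groups were fitted with limma, with 12 residual degrees of freedom, and p-values were adjusted by Benjamini-Hochberg over the 19578 probes. A call needs a fold of 1.4 or more, as in the study's methods, with an adjusted p below 0.05. The number of arrays limits the precision. On data simulated for this contrast (19578 probes) the fit recovered 48, 37, 38 and 50 of 50 probes changed by a log2 difference of -2, -1, 1 and 2, with 2 false calls. SAM recovered 41, 6, 16 and 46 of them, with 6 false calls. The simulated noise was independent between probes and held no shift common to an array or culture, so these counts do not bound the errors in the real data.

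The members and the 26 gene lists were chosen with earlier results of these data known, and 1 list is not reported here. Genes are named by rule: the 12 lowest and 12 highest called genes with 1 symbol whose mimic and inhibitor arrays do not overlap, the 6 in each direction furthest from the other pairs, the study's 4 candidates, earlier named targets, 14q32 transcripts, and the 2 to 4 most different members of each list. Other list members were named after their values were seen. Where a gene had several probes the brightest was used. Alternatives were the background correction, the scaling, the authors' table, the filter, the arrays in the fit, a replicate block, each array left out, the prior, SAM (the methods' test), the fold, the reference and the mean over probes.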

Additional observations from a re-analysis of the deposited data

Results flagged for a closer look

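Of the genes named by rule, 55 differed between microRNAs in limma's test of the difference itself. Their mimic minus inhibitor log2 difference for miR-410 was called unlike the mean of the same difference for the other 4 microRNAs. The count of 55 was partly fixed by the naming and is no test. Some of these genes were named because they lay furthest from the other pairs. Many others were named for large differences on the same miR-410 arrays. Of all 11319 genes, 4.3% were called below that mean and 4.92% above it. The values below are the miR-410 difference minus that mean, so that a negative value says that the gene was lower in the miR-410 pair than in the mean. Below and above the other pairs refer to this mean only, and a single pair could equal or pass miR-410. PMEPA1 was at -1.90 in the miR-655-3p pair and at -1.53 with miR-410. SLC2A12 was at 1.88 in the miR-135a pair and at 1.37 with miR-410. They are given as a description of these arrays.

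Inflammatory and secreted proteins lay below the other pairs. IL24 differed by -2.77, IL1A by -2.28, IL1B by -1.86, CXCL8 by -1.83 and IL6 by -1.53. SCG5 differed by -1.63, PTGES by -1.10, GDF15 by -0.988, CXCL2 by -0.858 and VEGFA by -0.853. In these genes the mean of the other pairs joins pairs with large and with small differences, as given above for IL24 and IL6. For VEGFA it joins pairs of opposite direction.

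Signaling and transport genes below the other pairs were GNG12 (-2.69), PRXL2C (-1.81), TSNAX (-1.79), BMPR2 (-1.24), EGR1 (-1.23), PMEPA1 (-1.14), SPRED1 (-1.08), STAT3 (-0.898) and TGIF1 (-0.724). STAT3 did not pass the threshold in the miR-410 contrast alone. Stress genes below them were DNAJB9 (-1.59), BNIP3L (-1.27), CEBPB (-0.901), DDIT3 (-0.760) and TP53INP1 (-0.659). The adhesion genes EPCAM (-1.20) and DSG2 (-0.637) lay below the other pairs too, and DSG2 was not called in the miR-410 contrast alone.

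Above the other pairs lay PPFIBP2 (1.84), MFHAS1 (1.75), CCDC190 (1.58), SCG2 (1.53), PROM2 (1.53), HSD3B1 (1.48), CPED1 (1.48), PRLR (1.25), ELAPOR1 (1.05), CHST4 (0.924) and SLC2A12 (0.694). Of the described lists, CA12 (1.34), FZD2 (1.05), ASNS (0.977), FOXO1 (0.760), EIF4EBP1 (0.668), SESN1 (0.605) and SGK1 (0.565) did so as well. So did DOCK5 (0.630), TNS3 (0.628) and COL4A1 (0.577) of adhesion, motility and matrix.

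Of the cell cycle genes, E2F2 (0.928), KNL1 (0.874), INCENP (0.751), CDKN1C (0.704), ASPM (0.623), GMNN (0.589), POLA2 (0.586) and SKP2 (0.576) lay above the mean of the other pairs. E2F2, GMNN and POLA2 were not called between miR-410 mimic and inhibitor. In that mean the miR-544a pair was the lowest for E2F2 (-1.38), GMNN (-0.76) and POLA2 (-0.95). The miR-135a pair was above or close to miR-410 for ASPM (0.76 against 0.61), POLA2 (0.40 against 0.40), INCENP (0.71 against 0.80) and CDKN1C (0.80 against 0.88). In the DNA replication list 7 of 40 genes lay above the other pairs, where 4.92% of all genes did. Its median difference was 0.12 with miR-410 and -0.19 in the mean of the other pairs.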

How the results depend on the processing

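The share of the 19578 probes that was called moved with several choices. Without background correction 2.22% were lower, 1.48% higher and 3.7% unlike the other pairs (434, 290 and 724 probes), in place of 4.69%, 4.55% and 8.05% (919, 890 and 1577). With median scaling the shares were 3.08%, 0.419% and 2.03% (603, 82 and 398 probes). With only the 4 miR-410 arrays in the fit 1.88% were lower and 1.17% higher, and with a fold of 2, 1.06% and 0.296% (207 and 58 probes). SAM on the 4 arrays called 1.44% lower (281 probes) and 0 higher, where limma had 2861 higher at an unadjusted p under 0.05. Against the other 4 inhibitors 2.73% were higher (535 probes). Leaving out 1 array gave 2.97% to 3.41% lower, 2.43% to 3.83% higher and 3.72% to 5.47% unlike the other pairs. Of the called genes named by rule DLC1 alone turned its direction under any alternative, from 0.55 to -0.0730 against the other 4 inhibitors, and the cause of these shifts was not tested. The 2 arrays share only a number: replicate 1 minus replicate 2 correlated at -0.357 between both groups, and a replicate block gave 4.71% lower and 4.54% higher. With the inhibitor's numbers exchanged, chosen after seeing the data, these were 4.91% and 4.75%. The block changed the call of 1 named gene. With 2 arrays a group, and levels near 27.1 to 27.8 at the detection limit, folds of dim genes are understated.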

Other observations

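Many other short structured RNAs were lower with the miR-410 mimic than with its inhibitor. The group was put together after its values were seen and is given as values only. It comprises the RNA components of RNase P and telomerase, spliceosomal RNAs, Y RNAs and vault RNAs. Of 23 such genes 14 were called lower by limma (4.6% of all genes were) and 0 higher, with 16 lower and 2 higher at an unadjusted p under 0.05. Their median log2 difference was -0.77, against 0.05 over all genes. RPPH1, the RNA of RNase P, read 830.0 and 823 with the mimic and 3074 and 2881 with the inhibitor (log2 difference -1.85 ± 0.14, adjusted p = 1.0e-06), and 568 and 591 with the control. RNY5, a Y RNA, read 115 and 113 with the mimic and 298 and 311 with the inhibitor (log2 difference -1.42 ± 0.16, adjusted p = 2.9e-05), and 167 and 137 with the control. RNU4ATAC, of the minor spliceosome, read 129.8 and 130.3 with the mimic and 309.9 and 314 with the inhibitor (log2 difference -1.26 ± 0.12, adjusted p = 8.9e-06). In these 3 the inhibitor arrays were the high ones. The telomerase RNA TERC (-0.23, adjusted p = 0.67), the vault RNA VTRNA1-1 (-0.38, adjusted p = 0.12) and RMRP (-0.04) did not pass the test, and the Y RNA RNY3 lay at 0.45 (adjusted p = 0.060).

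The U1 copies RNU1-3 (-1.78), RNVU1-18 (-1.77), RNVU1-7 (-1.69) and RNU1-1 (-1.39) were lower as well, but their probes may read each other's RNA. The mean of the other 4 mimic-inhibitor pairs was -1.67 for RPPH1 and had a median of -0.43 over the 23 genes, so lower values were not limited to miR-410. RN7SL1, the RNA of the signal recognition particle, read 13819 and 12133 with the mimic and 10154 and 10915 with the inhibitor (log2 difference 0.30 ± 0.13, adjusted p = 0.14), and RN7SK, a regulator of transcription elongation, 595 and 405 with the mimic and 410.3 and 612 with the inhibitor (log2 difference -0.03 ± 0.30, adjusted p = 0.96).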
